A study of Homo sapiens with 6 samples.

Results

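The genes described here encode the proteasome. They were chosen by name, with earlier results of these data known. The rule took every gene in the deposited table whose full symbol is PSMA, PSMB, PSMC, PSMD, PSME, PSMF or PSMG followed by digits. Pseudogenes were left out, and the 6 libraries had to average 1 or more. This gave 46 genes of the 22189 that passed the same minimum and of the 27394 genes in the table, and no gene with such a symbol was lost to the minimum. The libraries are RNA-seq of PANC-1, an established human pancreatic cancer cell line grown with fetal bovine serum, in RPMI-1640 per the labels and in DMEM per the study's general methods. 3 libraries came from cells that received a control shRNA (shControl) and 3 from cells that received an shRNA against ZDHHC20 (shZDHHC20), an enzyme that attaches palmitate to cysteines of other proteins. Per the labels both groups carry an shRNA and the treatment that delivered it, and the study asked what loss of ZDHHC20 does to gene expression in this line. The labels do not say whether the 3 libraries of a group came from separate cultures, so the p-values measure only the spread between these libraries, which may be technical.

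The proteasome degrades proteins that carry ubiquitin chains. Its 20S core is a barrel of alpha and beta subunit rings, and the beta subunits PSMB5, PSMB6 and PSMB7 hold the proteolytic sites. The 19S particle caps the barrel: its base unfolds substrates with the ATPases PSMC1 to PSMC6, and its lid removes ubiquitin with PSMD14. Interferon induces PSMB8, PSMB9 and PSMB10, which replace the constitutive catalytic subunits to form the immunoproteasome, a form known for making peptides that MHC class I molecules present. PSME1 and PSME2 form the PA28 activator, which interferon also induces, and PSMF1 is an inhibitor of the core. The 46 genes comprised 7 alpha subunits, 7 constitutive beta subunits, 3 inducible beta subunits, 9 genes of the 19S base, 8 of the lid, 3 base assembly chaperones, 4 core assembly chaperones, 4 activators and PSMF1.

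Upstream sequence is shown for the inducible subunits, because their log2 fold changes with all 6 libraries were the most negative, for PSME2, for PSMB5 as a constitutive partner, and for PSMC4, the most abundant of these transcripts. RefSeq starts on build GRCh38.p14 were used. Up to the 250 bases before the start were read 5′ to 3′ on the gene's strand, and stretches annotated as untranslated region in GENCODE 29 were left out, except for 30 bases around a motif in PSMB10 and PSME2. Capitals mark matches to the 5 motifs named in the next paragraph. The stretches are PSMB8 at chr6:32844704-32844835 (minus strand), PSMB9 at chr6:32853979-32854160 (plus), PSMB10 at chr16:67936852-67936881 (minus), PSME2 at chr14:24146619-24146648 (minus), PSMB5 at chr14:23035231-23035470 (minus) and PSMC4 at chr19:39970915-39971004 (plus).
PSMB8: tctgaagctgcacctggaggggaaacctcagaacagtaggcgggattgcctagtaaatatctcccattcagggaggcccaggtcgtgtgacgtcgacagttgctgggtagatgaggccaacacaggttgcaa
PSMB9: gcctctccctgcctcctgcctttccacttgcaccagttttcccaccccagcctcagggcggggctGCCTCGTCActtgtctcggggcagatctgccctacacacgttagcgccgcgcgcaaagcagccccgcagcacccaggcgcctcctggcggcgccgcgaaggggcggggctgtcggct
PSMB10: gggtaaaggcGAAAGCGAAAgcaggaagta
PSME2: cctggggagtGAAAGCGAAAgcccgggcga
PSMB5: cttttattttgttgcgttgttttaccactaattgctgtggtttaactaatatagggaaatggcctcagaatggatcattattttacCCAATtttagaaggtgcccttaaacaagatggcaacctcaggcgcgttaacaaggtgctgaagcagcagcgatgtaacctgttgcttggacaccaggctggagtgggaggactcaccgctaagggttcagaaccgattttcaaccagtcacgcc
PSMC4: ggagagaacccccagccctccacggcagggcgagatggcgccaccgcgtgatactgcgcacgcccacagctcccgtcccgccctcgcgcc

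The 5 motifs were searched on both strands of the whole window of 250 bases, which could be read for 40 of the 46 genes (49 starts). The interferon-stimulated response motif, GAAA and GAAA with 2 bases of any kind between them, was present for 5 genes, PSMA4, PSMB4, PSMB10, PSME2 and PSMG4, and in 3.02% of the 35116 windows of the reference table. In PSMB10 it lay 21 to 12 bases before the start and in PSME2 28 to 19 bases before it, with the same 10 letters in both. TTCNNNGAA, the palindromic GAS motif that STAT factors bind, was present for 6 genes, among them PSMB8 at its other start, PSMB5 at its other start and PSMC4, against 6.57% of all windows. TGACNNNGC, a core of the antioxidant response element that NFE2L1 and NFE2L2 bind with small MAF partners, was present for 13 genes including PSMB9, PSME1 and PSME2, against 10.9% of all windows. The CCAAT box was present for 18 genes against 32% of windows, and the palindromic E box CACGTG for 3 genes, PSMB3, PSMD9 and PSME3, against 6.34%. No match in the 6 genes shown overlapped another. A gene counted if any of its starts matched (40 genes, 49 starts), whereas the percents are over single windows, so they are not like for like. These matches describe the letters and were not tested for binding. No window was read for PSMA7, PSMB1, PSMB6, PSMB7, PSMD4 and PSMG3.

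The values of a library summed to 16576000 to 18441000 times its smallest value above 0. Whether that smallest value stands for 1 read was not established for all libraries, so this sum is not a known depth. ZDHHC20 itself read 2001, 2033 and 1940 in shControl and 872, 779 and 893 in shZDHHC20, a log2 fold change of -1.23 ± 0.06 (SE, limma, adjusted p = 4.36e-07), so the target was lower in every shZDHHC20 library. shZDHHC20 replicate 2 stood apart from the other libraries of its group. Over 4136 abundant genes the SD of its log2 differences from replicates 1 and 3 was 0.178 to 0.198, against 0.0722 between replicates 1 and 3 and 0.0674 to 0.0718 within shControl. Results that rest on it are given with and without it. The duct keratins KRT8, KRT18 and KRT19 were abundant in all libraries, whereas KRT7, another of them, was scarce at a mean of 86.5 in shControl and 85.3 in shZDHHC20. The leukocyte genes PTPRC, CD14 and SPI1, whose cells express the inducible subunits, together summed to 28.0 to 40.4 in shControl and 23.3 to 49.8 in shZDHHC20. CD3E and LYZ were not analysed here. The acinar gene PRSS1 read 0 to 8.45 and the fibroblast gene LUM 0 to 3.18. The part of other cell types in the results was not tested.

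Proteasome transcripts took a steady share of the library, 0.656 to 0.67% of the summed values. Their levels, compared as the value per kb of principal transcript in shControl, differed widely between subunits that occur once per ring. PSMC4, an ATPase of the base, stood highest at 22327 ± 330 per kb (SD, n = 3), in the 99.8th percentile of 14645 protein-coding genes, and alone held 27.1 to 30% of the summed values of the 46 genes. The next were the beta subunits PSMB4 at 4319 ± 21.0 and PSMB1 at 4006 ± 169 per kb and the alpha subunit PSMA7 at 3778 ± 123 per kb. PSMB1 and PSMA7 overlapped in their control libraries, whereas PSMB4 lay above both in each. The other 5 ATPases ran from 194 per kb for PSMC1 to 1403 per kb for PSMC3. The length taken was that of the longest transcript annotated as principal, 4.448 kb for PSMC1 and 1.58 kb for PSMC3. Levels per kb depend on that choice. The median protein-coding gene read 122.6 per kb, and only 4 members lay under it: PSMA2 at 40.8, PSMB10 at 34.9, PSMD9 at 34.3 and PSMA6 at 24.4 per kb.

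Some of these low or high levels concern genes whose sequence other genes share. In GENCODE 29, 85.6% of the 50-base stretches of PSMA6 transcripts also occur in another gene, as do 51.0% of PSMA2, 48.4% of PSMA1, 38.9% of PSMB10 and 35.8% of PSMD9, mostly in an overlapping read-through gene or a processed pseudogene. PSMC1 (29.01%), PSMC6 (24.7%) and PSMD4 (21.9%) share less, and 75.8% of the exon bases of PSMC1, the lowest ATPase, also lie opposite another gene, NRDE2. How reads with several possible origins were assigned is not given in the sources used here, so the levels of these 8 genes are uncertain. PSMC4 shared none. The read-through gene over PSMB10 was in the table at 17.2, 18.1 and 24.0 in shControl and 14.8, 22.5 and 5.77 in shZDHHC20, and PSMA6P1, a pseudogene of PSMA6, at 12.0 to 15.2 and 9.62 to 17.0.

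**Figure D1:**
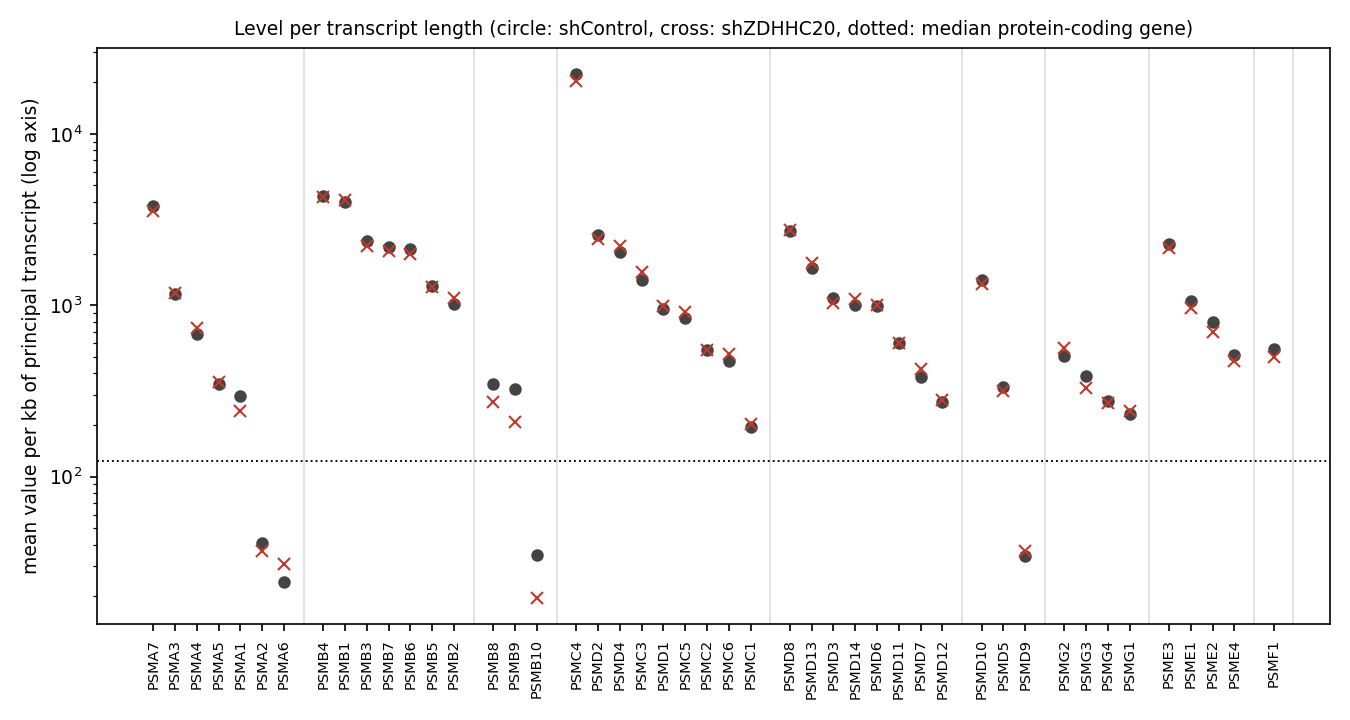
Mean value per kb of principal transcript (log axis) for each of the 46 genes, ordered by level within each structural group, with shControl as circles, shZDHHC20 as crosses and the median protein-coding gene as a dotted line. PSMC4 stands alone near the top, and PSMA2, PSMA6, PSMB10 and PSMD9 fall under the dotted line in both groups.

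Most genes of the constitutive proteasome lay close to their control level after knockdown of ZDHHC20. Of the 46 genes, 3 passed an adjusted p of 0.05, all of them lower in shZDHHC20: the inducible subunit PSMB9, the alpha subunit PSMA1 and the ATPase PSMC4. That is 6.52% of the 46 genes, against 11.5% of all genes tested and 22.9% of the genes that averaged 200 or more (42 of the 46 genes do). Over all genes, 6.84% were called lower and 4.61% higher. At an unadjusted p of 0.05 (limma), 11 of the 46 genes passed, 8 lower and 3 higher. The share of all genes at that threshold is not given here. This count, and the later counts at an unadjusted p, therefore cannot be set against a background. The groups did not overlap for 12 of the 46 genes (26.1%), 8 lower and 4 higher, against 28.6% of all genes. Of the 43 genes that were not called, 39 had a 95% interval of the log2 fold change within ±0.5 and 32 within ±0.3. The median log2 fold change over the 46 genes was -0.01, beside 0.01 over all genes. In bulk RNA, fewer cells with a transcript and less transcript per cell cannot be told apart.

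**Figure D2:**
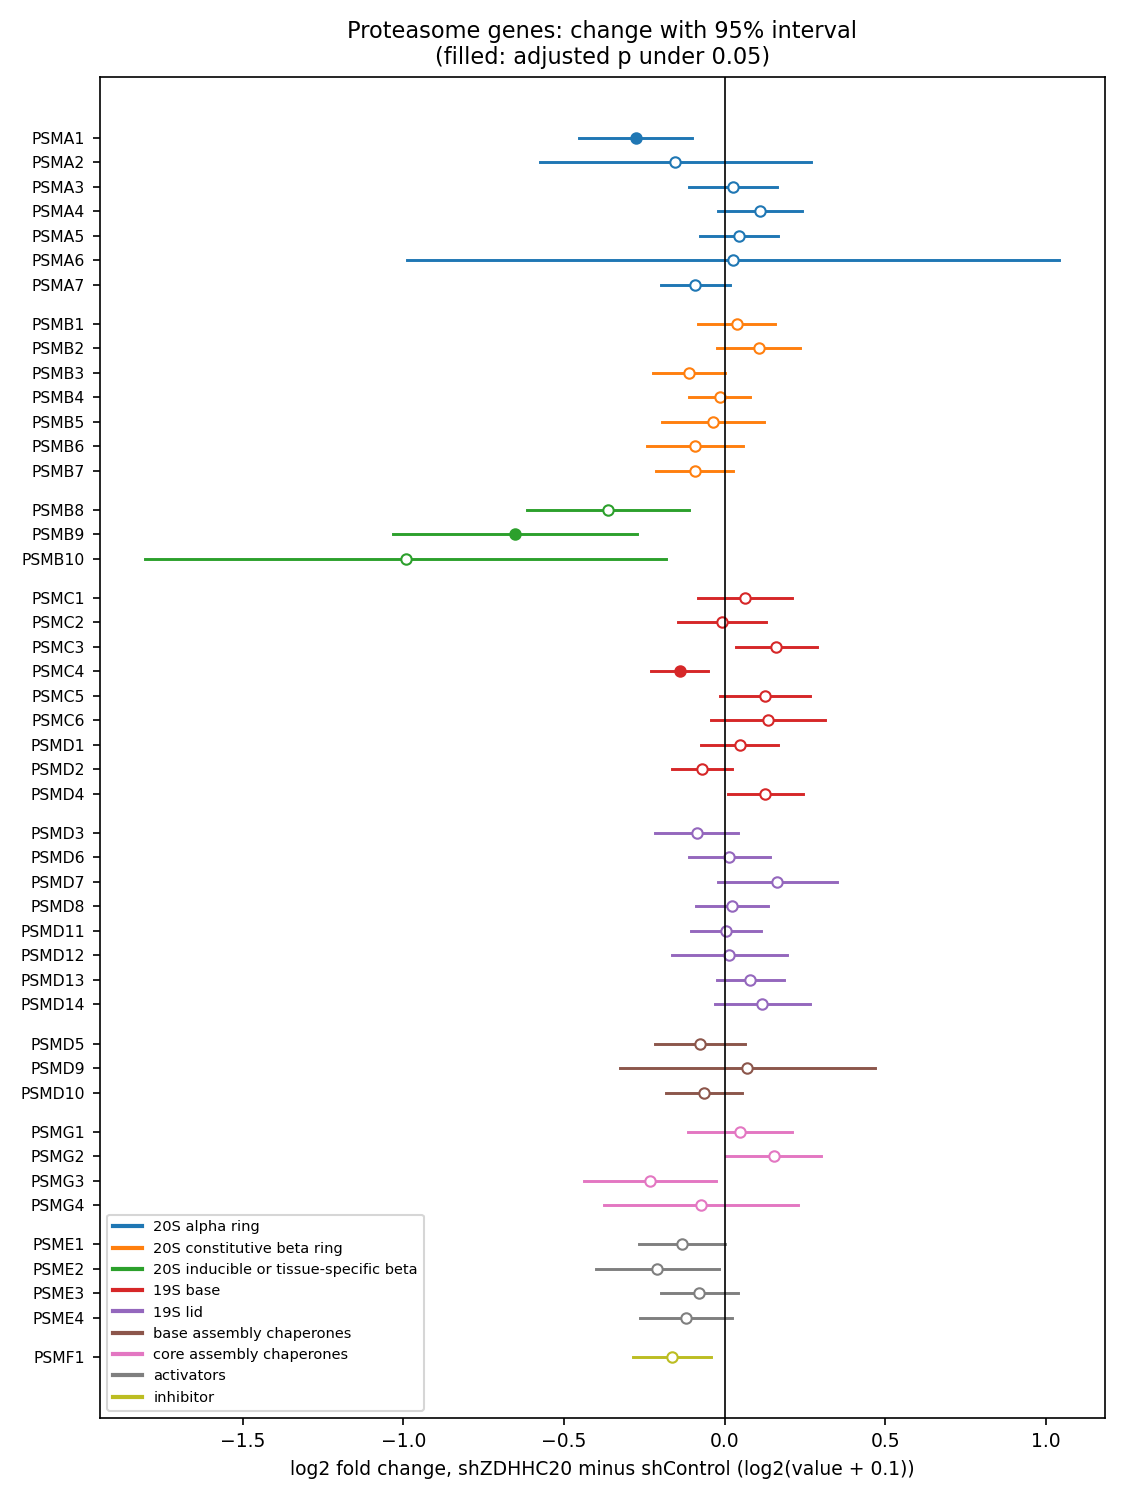
Log2 fold change, shZDHHC20 minus shControl, with its 95% interval for each of the 46 genes by structural group, filled where the adjusted p was under 0.05. The 3 filled points, PSMA1, PSMB9 and PSMC4, lie left of 0, and the inducible subunits PSMB8, PSMB9 and PSMB10 lie farthest left with all 6 libraries.

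In the constitutive 20S core the alpha ring had a median log2 fold change of 0.03 (range -0.28 to 0.11) and the beta ring of -0.04 (-0.11 to 0.11). PSMA1 was the single call among these 14 genes. It read 447, 435 and 445 in shControl and 342, 378 and 375 in shZDHHC20, and every shZDHHC20 library lay under every shControl library. Its log2 fold change was -0.28 ± 0.08 (SE, limma, adjusted p = 0.0424), and it lies at chr11:14504874-14643635 (GRCh38). The read-through gene that shares its sequence had no row in the deposited table.

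The 3 catalytic beta subunits were not called, and none had an unadjusted p under 0.05 (limma). PSMB5, with the chymotrypsin-like site, read 1700, 1656 and 1672 in shControl and 1559, 1859 and 1508 in shZDHHC20. PSMB6, with the caspase-like site, read 1819, 1793 and 1817 against 1629, 1911 and 1572, and PSMB7, with the trypsin-like site, read 2139, 2207 and 2119 against 1960, 2148 and 1960. For PSMB5 and PSMB6, shZDHHC20 replicate 2 was the highest of the 6 libraries while replicates 1 and 3 were the lowest. The log2 fold changes were -0.04, -0.09 and -0.09 with adjusted p of 0.822, 0.472 and 0.349 (limma). Without replicate 2 they were -0.13, -0.18 and -0.14 with adjusted p of 0.0492, 0.00715 and 0.0237.

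In PSMA6 the same library also stood apart, at 23.24, 23.10 and 29.04 in shControl and 11.66, 61.04 and 23.10 in shZDHHC20. PSMA6 was the lowest of the 46 genes per kb, and 85.6% of its 50-base stretches also occur in another gene, so these values are uncertain. Its SD was 25.9 in shZDHHC20 and 3.39 in shControl. The log2 fold change was 0.03 with all libraries (95% interval -0.99 to 1.04) and -0.60 without replicate 2 (limma, adjusted p = 0.332).

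In the 19S particle the ATPase PSMC4 was the single call among 17 genes. It read 35983, 34949 and 35634 in shControl and 32432, 31026 and 33314 in shZDHHC20, so the groups did not overlap. The difference was small, 90.8% of the control mean or a log2 fold change of -0.14 ± 0.04 (SE, limma, adjusted p = 0.0426), and with quantile normalization it was 0.0035 (adjusted p = 0.966). PSMC4 lies at chr19:39971005-39981441 (GRCh38).

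The other base and lid genes were not called. Of the 17 genes of base and lid, 13 had a log2 fold change above 0, with a median of 0.06 in the base and 0.02 in the lid. The share of all genes above 0 is not given here, so this count has no background. In the base, the ATPase PSMC3 and the ubiquitin receptor PSMD4 had higher values in every shZDHHC20 library than in any shControl library. Their log2 fold changes were 0.16 and 0.13 (limma, adjusted p = 0.104 and 0.169). For both genes shZDHHC20 replicate 2 was the highest library. Without it the log2 fold changes were 0.10 and 0.08 (limma, adjusted p = 0.0786 and 0.148). PSMD2, a scaffold subunit of the base, lay the other way at 8721, 8605 and 9160 in shControl and 8499, 8422 and 8274 in shZDHHC20, also with no overlap (-0.07, adjusted p = 0.35). In the lid, 7 of 8 genes lay above 0, from 0.0034 for PSMD11 to 0.16 for PSMD7, and PSMD3 lay at -0.09. Of those above 0, PSMD6, PSMD8, PSMD11 and PSMD12 fell under 0 in at least 1 fit that left out a library. PSMD14, the deubiquitinase of the lid, had a log2 fold change of 0.12 (adjusted p = 0.328), and 0.20 without shZDHHC20 replicate 2 (adjusted p = 0.00428). Of the 31 constitutive 26S genes in core, base and lid, 29 had a 95% interval within ±0.5.

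No assembly chaperone was called, and 2 of the 7, PSMG2 and PSMG3, had an unadjusted p under 0.05 (limma). PSMD5, PSMD9 and PSMD10, which escort the base ATPases, had log2 fold changes of -0.08, 0.07 and -0.06. PSMG1 and PSMG2, which pair to build the alpha ring, had 0.05 and 0.15, and PSMG3 and PSMG4, which pair in the same process, had -0.23 and -0.07. PSMG3 (adjusted p = 0.151, limma) was at -0.33 without shZDHHC20 replicate 2 (adjusted p = 0.0053).

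With all 6 libraries the 3 inducible beta subunits had the most negative log2 fold changes of the 46 genes, with a group median of -0.65. This order was not kept in 2 of the fits that left out a library: without shZDHHC20 replicate 2 PSMA6 (-0.60) lay under PSMB8 (-0.46), and without shControl replicate 1 PSMA1 (-0.270) and PSMG3 (-0.267) lay under PSMB8 (-0.265). PSMB9, which takes the place of PSMB6, read 294, 220 and 244 in shControl and 132, 220 and 140 in shZDHHC20. Replicates 1 and 3 were far under control, while replicate 2, at 219.8, lay just under the lowest control library at 220.0, so the groups were separate by a narrow margin. The log2 fold change was -0.65 ± 0.18 (SE, limma, adjusted p = 0.029), and -0.88 without replicate 2 (adjusted p = 1.99e-04). PSMB9 lies at chr6:32844136-32859585 (GRCh38) beside PSMB8, in the MHC region.

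PSMB8, which takes the place of PSMB5, read 447, 393 and 338 in shControl and 276, 347 and 292 in shZDHHC20. Replicate 2 was above the lowest control library and replicates 1 and 3 were under all of them. The log2 fold change was -0.36 ± 0.12 (SE, limma, adjusted p = 0.0658), and -0.46 without replicate 2 (adjusted p = 0.00666). PSMB8 is transcribed opposite to PSMB8-AS1, which read 0 to 5.01 in all libraries, and it overlaps PSMB9 in the annotation on the other strand. How strand was counted is not given in the sources used here.

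PSMB10, which takes the place of PSMB7, was scarce at 47.5, 34.1 and 46.1 in shControl and 12.7, 40.4 and 18.3 in shZDHHC20. Replicate 2 again lay within the control range and replicates 1 and 3 under it. The log2 fold change was -0.99 ± 0.38 (SE, limma, adjusted p = 0.117), and -1.46 without replicate 2 (adjusted p = 0.00414). Without shZDHHC20 replicate 1 it was -0.63 (adjusted p = 0.368).

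Each inducible subunit was then set against the constitutive subunit it replaces, per transcript length and within each library, which cancels the scaling of the library. PSMB8 stood at 30.3, 27.3 and 23.3% of PSMB5 in shControl and at 20.3, 21.5 and 22.3% in shZDHHC20. PSMB9 stood at 17.6, 13.4 and 14.6% of PSMB6 in shControl and at 8.86, 12.5 and 9.67% in shZDHHC20. For both pairs all 3 shZDHHC20 libraries lay under all 3 shControl libraries, replicate 2 included. In replicate 2, however, the partners PSMB5 (1859) and PSMB6 (1911) were at their highest of the 6 libraries. PSMB8 itself (347) lay inside the control range there, and PSMB9 (219.8) just under its lowest control library (220.0). The ratios of replicate 2 therefore do not by themselves show lower inducible subunits in that library. PSMB10 stood at 1.79, 1.25 and 1.75% of PSMB7 against 0.522, 1.51 and 0.75%, where replicate 2 lay inside the control range. The differences in log2 ratio were -0.33, -0.56 and -0.90, with exact permutation p of 0.1, 0.1 and 0.2 (two-sided, 3 pairs, adjusted 0.15, 0.15 and 0.2), where 0.1 is the smallest p that 3 against 3 libraries allow. Without replicate 2 they were -0.33, -0.71 and -1.32, and without shZDHHC20 replicate 1 the PSMB10 difference was -0.56.

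**Figure D3:**
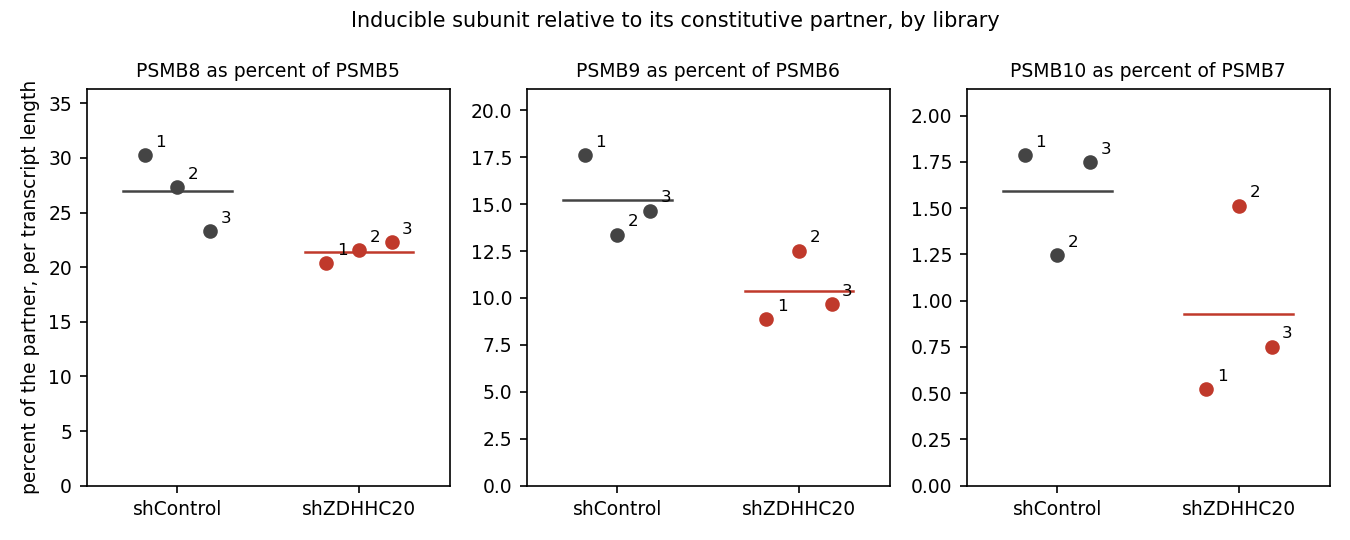
Level of PSMB8, PSMB9 and PSMB10 as a percent of PSMB5, PSMB6 and PSMB7, per transcript length, in each library (points, numbered by replicate) with the group mean as a line. The shZDHHC20 points of PSMB8 and PSMB9 lie under every shControl point, and replicate 2 of shZDHHC20 lies within the control range for PSMB10.

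The 4 activators all had log2 fold changes under 0, with a median of -0.13. None was called by limma, and 1, PSME2, had an unadjusted p under 0.05. PSME1 read 1042, 1048 and 1092 in shControl and 992, 923 and 986 in shZDHHC20, with no overlap (log2 fold change -0.13 ± 0.06, SE, limma, adjusted p = 0.21). PSME2 read 1225, 1042 and 1113 against 905, 1121 and 905, where replicate 2 lay within the control range (-0.21 ± 0.09, adjusted p = 0.167). PSME2 was at -0.31 without replicate 2 (adjusted p = 0.00291), and PSME1 at -0.10 (adjusted p = 0.215). These partners form the PA28 ring, and the ratio of PSME1 to PSME2, per length, was 119, 140 and 137% in shControl and 153, 115 and 152% in shZDHHC20 (exact permutation p = 0.6, two-sided).

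The other activators are PSME3 and PSME4. PSME3, which forms the nuclear PA28 gamma ring, read 2267, 2288 and 2278 in shControl and 2202, 2020 and 2254 in shZDHHC20. PSME4, the PA200 activator, read 3660, 3613 and 3694 against 3475, 2992 and 3662. For both, as for PSME1, replicate 2 was the lowest library, and the log2 fold changes of -0.08 and -0.12 (adjusted p = 0.432 and 0.301, limma) were -0.03 and -0.04 without it. The inhibitor PSMF1 read 2367, 2401 and 2408 against 2247, 1991 and 2179, with no overlap (-0.16 ± 0.06, SE, limma, adjusted p = 0.0863), and -0.11 without replicate 2 (adjusted p = 0.0485).

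shZDHHC20 replicate 2 decided how many genes passed. Without it, 19 of the 46 genes were called (41.3%), 13 lower and 6 higher. The same test then called 11.1% of all genes lower and 8.93% higher, and 41.3% in either direction of the genes that averaged 200 or more. The 13 lower genes were the 3 inducible subunits, PSMA1, PSMA7, PSMB5, PSMB6, PSMB7, PSMC4, PSMD3, PSME2, PSMF1 and PSMG3, and the 6 higher genes were PSMA4, PSMB2, PSMC6, PSMD1, PSMD14 and PSMG2. The median of the alpha ring was then -0.12, of the constitutive beta ring -0.09, of the inducible subunits -0.88, of the base 0.08 and of the lid 0.07. Leaving out any shControl library, or shZDHHC20 replicate 1, left no call among the 46 genes in limma, where 6 to 9 of them had an unadjusted p under 0.05, and leaving out shZDHHC20 replicate 3 left PSMC4 alone.

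**Figure D4:**
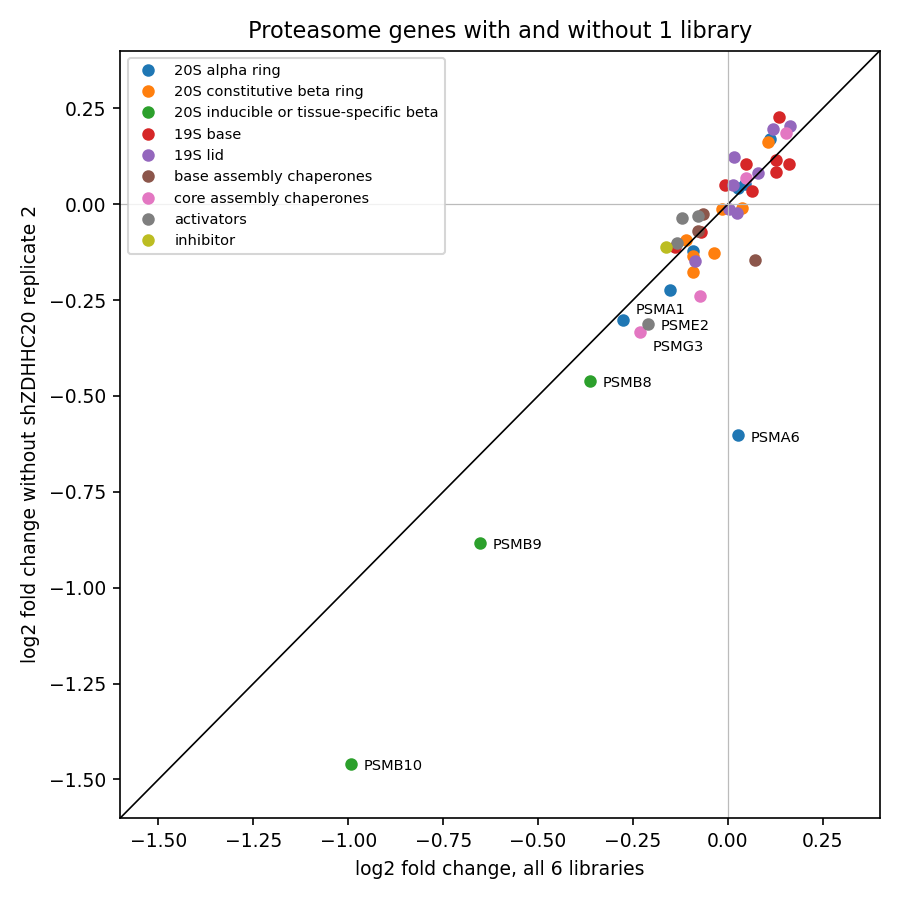
Log2 fold change of each of the 46 genes with all 6 libraries (horizontal) and without shZDHHC20 replicate 2 (vertical), coloured by structural group, with the line of equality. PSMB8, PSMB9 and PSMB10 lie under the line, and PSMA6 moves from 0.03 to -0.60.

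With earlier results of these data known, a list was chosen of 37 genes that work with the proteasome under other names. Of these, 3 were higher and 1 lower at an adjusted p of 0.05 (10.8%), with a median log2 fold change of 0.0023. The same test called 11.5% of all genes and 22.9% of the genes that averaged 200 or more, as all 37 did. UBE3A, a ubiquitin ligase that binds the proteasome, read 1754, 1856 and 1892 in shControl and 2475, 2204 and 2573 in shZDHHC20 (log2 fold change 0.40, limma, adjusted p = 0.00136). UBE3C, a ligase that extends ubiquitin chains at the proteasome, read 2761, 2746 and 2904 against 3461, 3198 and 3335 (0.25, adjusted p = 0.00684). NFE2L1, the transcription factor that raises proteasome genes when proteasome activity falls, read 7279, 7053 and 7294 against 8025, 8443 and 7977 (0.18, adjusted p = 0.0194).

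VCP, the segregase that extracts ubiquitylated proteins for degradation, read 11340, 10642 and 11434 in shControl and 9894, 9686 and 9986 in shZDHHC20 (-0.18, limma, adjusted p = 0.0197). In all 4 of these genes the groups did not overlap, replicate 2 included. Quantile normalization ended the call of VCP (-0.095, adjusted p = 0.175), and the replicate block those of VCP (adjusted p = 0.0539) and NFE2L1 (0.0654). Of the 16 alternatives, UBE3A passed under 14, UBE3C under 11, and NFE2L1 and VCP under 9 each. POMP and ADRM1, the core maturation factor and the ubiquitin receptor of the 19S particle, had log2 fold changes of 0.11 and 0.04 and were not called. Without shZDHHC20 replicate 2, 14 of the 37 genes were called, 8 higher and 6 lower, where the same test called 8.93% of all genes higher and 11.1% lower, and 41.3% of the genes that averaged 200 or more.

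A list of 23 interferon and antigen presentation genes was read beside the inducible subunits, since interferon raises them together. Of the 22 genes that could be tested, 9 were lower and 2 higher, which is 50%. The same test called 11.5% of all genes and 22.9% of the genes that averaged 200 or more, which not all of this list did. The list was chosen with earlier results of these data known, so its share is a description and not independent evidence. The median log2 fold change was -0.27, and the 11 called genes had adjusted p from 8.32e-06 to 0.0384 (limma). TAPBP, which loads peptides on MHC class I, read 4575, 4603 and 4649 in shControl and 2956, 2626 and 3007 in shZDHHC20 (-0.69). HLA-B read 308, 267 and 286 against 171, 142 and 164 (-0.86), and B2M, the MHC class I light chain, read 12820, 12979 and 12924 against 10461, 10415 and 10908 (-0.29). In these 3 genes replicate 2 was the lowest library, unlike in PSMB8, PSMB9 and PSMB10.

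The peptide transporter gene TAP1, which lies next to PSMB9 and is transcribed away from it, read 1248, 1255 and 1336 in shControl and 874, 1116 and 881 in shZDHHC20 (-0.43). Replicate 2 lay between the control libraries and the other 2 knockdown libraries. Its partner TAP2 read 659, 628 and 673 against 442, 457 and 512 (-0.48). IRF1, a transcription factor of the interferon response, read 406, 416 and 452 against 298, 319 and 278 (-0.51), and ERAP1 (-0.35), a peptide-trimming enzyme, was lower too. HLA-C was also called lower (-0.38). The 2 genes called higher were STAT2 (0.27) and IFIT3 (0.47), so the list did not move in 1 direction. Without replicate 2, 13 of the 22 genes were called, where the same test called 11.1% of all genes lower and 8.93% higher, and 41.3% of the genes that averaged 200 or more.

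**Figure D5:**
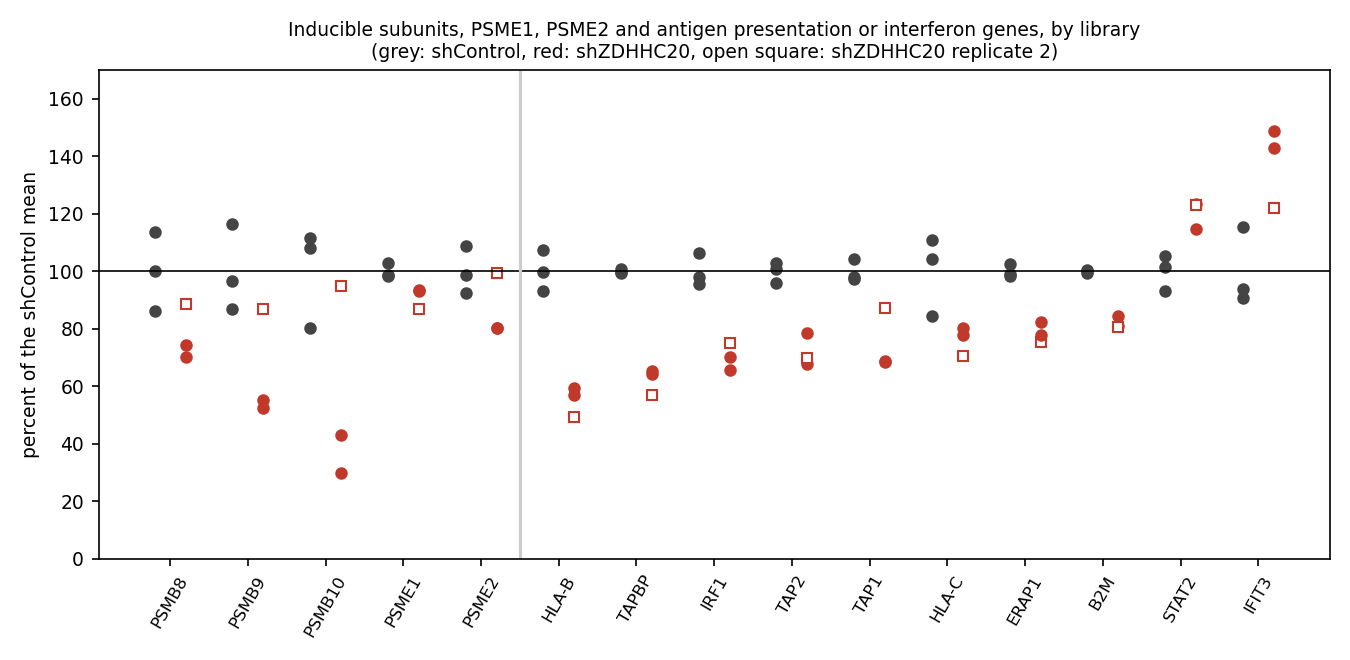
Value in each library as a percent of the shControl mean for PSMB8, PSMB9, PSMB10, PSME1 and PSME2 (left of the line) and for 10 of the 11 called genes of the interferon and antigen presentation list, with shZDHHC20 replicate 2 as an open square. Replicate 2 lies near control for PSMB10 and PSME2 and with the other knockdown libraries for TAPBP, HLA-B and B2M.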

How the data were processed

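RNA-seq was made from 6 PANC-1 libraries, 3 shControl and 3 shZDHHC20. The deposited table gives a signal per gene: the authors named it FPKM, but every value in a library is a whole multiple of its smallest value above 0 (tolerance 0.01), as gene counts divided by 1 factor per library would be, and they are not divided by gene length. The factors were not recovered for all columns. The submitters' processing notes name hg19. The aligner, counter and annotation are not given in the sources used here. The columns are named siZDHHC20 and NC, whereas the sample titles say shZDHHC20 and shControl; each column was tied to a sample as the ZDHHC20 knockdown or the control, and by its number.

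Values were taken as log2(value + 0.1). Fold changes of low genes depend on the 0.1 added, and those of genes with a library at 0 can be overstated. Genes averaging 1 or more over the 6 libraries (22189) were tested with limma 3.58.1 (R 4.3.3, variance trend, two-sided) with Benjamini-Hochberg adjustment, called at 0.05. The same code was also run on simulated data with known changes. The simulation set no library apart from its group, and its changes were larger than those of the called members. It therefore does not cover these features of the data. Identifiers were named from a reference table (27175 of 27394). Lengths, overlaps and shared 50-base stretches came from GENCODE 29. Single ratios used exact permutation tests.

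Per-library values are given for called members, the inducible subunits, their partners and PSME1 to PSME4, and for at most 8 called genes of each other list by smallest adjusted p, plus NFE2L1. PSMF1, PSMA6, PSMD2, POMP, ADRM1, HLA-C, STAT2 and IFIT3 were added after their values were seen. A few genes of these lists are not reported here. The members and lists were chosen with earlier results of these data known. Alternatives were other pseudocounts, filters, scalings and variance models, the replicate number as a block, and each library left out. Values summed to 16576000 to 18441000 times the smallest value of each library, which is not established as the number of reads.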

Additional observations from a re-analysis of the deposited data

How the results depend on the processing

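The log2 fold change of ZDHHC20 stayed past the threshold under all 16 alternatives (-1.27 to -1.17). The count of 3 called members was 4 with a pseudocount of 1 and with robust moderation, which added PSMB8, and PSMB9 was called under 9 of 16 alternatives, PSMA1 under 7 and PSMC4 under 6. Quantile normalization left 1 member (PSMB9) and a base median of 0.083, and reversed PSMA6 (-0.051), PSMB4 (0.0028), PSMC2 (0.0014) and PSMC4 (0.0035). Without the variance trend, 351 genes were called, with 0 members (2 at an unadjusted p under 0.05), 0 associated and 2 interferon genes. Without moderation, 912 genes were called, with 0 members (5 unadjusted), 1 associated and 4 interferon genes. The cause was not tested.

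Leaving out 1 library at a time gave 1233 to 4454 genes, 0 to 19 members, 1 to 14 associated genes and 7 to 13 interferon genes. The medians ranged from 0.048 to 0.096 (base), 0.0088 to 0.066 (lid), -0.12 to 0.037 (alpha), -0.092 to -0.0095 (constitutive beta), -0.88 to -0.52 (inducible beta) and -0.15 to -0.068 (activators). These uncalled members crossed 0: PSMA3 (-0.014 to 0.064), PSMA6 (-0.60 to 0.59), PSMB1 (-0.0091 to 0.075), PSMB5 (-0.13 to 0.023), PSMC2 (-0.053 to 0.051), PSMD6 (-0.010 to 0.049), PSMD8 (-0.024 to 0.057), PSMD9 (-0.14 to 0.18), PSMD11 (-0.014 to 0.027), PSMD12 (-0.054 to 0.12) and PSMG4 (-0.24 to 0.048).

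Same-numbered libraries did not deviate together from their group means (correlations -0.19, -0.27 and -0.078). With 3 libraries per group and shZDHHC20 replicate 2 apart from its group, this cannot show whether the numbers pair the samples. With the replicate number as a block, 1 member (PSMB9) and 2 associated genes were called. The planned edgeR and DESeq2 fits were not run, since reads were not recovered for all columns. The depth in reads is not known, so its limit on low genes was not tested.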

Other observations

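The neighbours of PSMC4 on chromosome 19 were read after its level had been seen. FBL, which encodes the rRNA methyltransferase fibrillarin and lies before PSMC4 on the chromosome, read 33393 ± 498 per kb of principal transcript in shControl (SD, n = 3), at percentile 99.9 of the protein-coding genes. EID2, DYRK1B, MAP3K10 and ZNF780A lay at percentiles 98.1, 96.6, 97.2 and 94, and ZNF780B and EID2B at 84 and 72.8. FCGBP, between FBL and PSMC4, read 18.4 per kb (percentile 24.4), ZNF546, the next gene after PSMC4, read 199 per kb (percentile 61.3), and TTC9B read 25.9 per kb (percentile 27). The log2 fold changes of these 10 neighbours ran from -0.16 for FBL to 0.18 for EID2B, beside -0.14 for PSMC4, and FBL was the single neighbour called (limma, adjusted p = 0.0171).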
